A study of Mus musculus with 6 samples.

Results

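The 44 genes described here encode proteins that copy DNA in S phase or supply its building blocks. They were taken by gene symbol from the deposited table of raw RNA-seq counts, and all 44 were found among its 21240 genes. All 44 also passed the filter on low counts (a CPM value, that is, counts scaled to library size, of 2 or more in 2 or more libraries), which left 11080 genes for testing. Their symbols fall into 7 roles, which are 6 genes of origin recognition and licensing, 12 of the helicase, 6 of the sliding clamp and its loader, 9 of the polymerases and primase, 5 of single-strand binding and Okazaki fragment joining, 4 of nucleotide synthesis and 2 of chromatin assembly.

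Total RNA was sequenced with strand information from NMuMG cells, an established epithelial line from normal mouse mammary gland that is widely used to study epithelial-mesenchymal transition in response to transforming growth factor β (TGFβ). Cells were kept without serum and insulin for 6 h and then received 5 ng/ml TGFβ1 for 2 h (TGFb2h), the same dose for 12 h (TGFb12h), or vehicle for 2 h (veh), which is Tris-HCl with BSA by the sample labels and HCl with BSA by the study's methods. There were 2 biological replicates per group and 6 libraries in all, each from the same parental line with no other alteration. Vehicle and 2 h cells had thus spent 8 h without serum at harvest and 12 h cells 18 h. There was no 12 h vehicle, so the longer TGFβ exposure and the longer time without serum cannot be told apart in any comparison of the 12 h group.

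The libraries held 14705886 to 23786993 counts. The epithelial markers Krt8, Krt18 and Cdh1 were abundant in every library, with a summed level of the 7 epithelial markers of 3293 to 9896 CPM, whereas Epcam had 16 counts at most, Cldn7 had counts in 1 library only, and Cldn3 and Esrp1 had at most 3 counts each. Of the 6 fibroblast markers, Thy1 was at 0 counts throughout, and the summed level was 3.5 to 15.1 CPM. It was highest at 12 h through Col1a1, at 0.647 and 1.27 CPM in vehicle and 11 and 10.8 CPM at 12 h, while Pdgfra had a log2 fold change of 0.09 (adjusted p = 0.846). The part of Col1a1 in the results was not tested. The TGFβ target genes Smad7 and Skil rose at both times, with log2 fold changes of 2.07 and 2.09 at 2 h and 2.65 and 2.21 at 12 h (edgeR quasi-likelihood test, adjusted p of 0.00484 at most).

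Eukaryotic DNA replication is prepared in G1, when the origin recognition complex, CDC6 and CDT1 load rings of MCM2-7 onto DNA, and starts in S phase, when CDC45 and the GINS complex turn the ring into the active helicase. Primase with DNA polymerase α begins each strand, and polymerases ε and δ extend it with the clamp PCNA. Many of these genes are transcribed under the control of E2F factors, and TGFβ is known for arresting mammary epithelial cells in G1. In bulk RNA, a smaller share of cells in S phase and less RNA per cell cannot be told apart.

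Because E2F sites are the best known regulatory element of these genes, promoter windows from 250 bases before to 50 bases after the annotated start (RefSeq, GRCm38.p6) were searched for the E2F words TTTGGCGC, TTTGCCGC, TTTCGCGC and TTTCCCGC on both strands. A window was found for 36 of the 44 genes, and 14 of them (38.9%) held at least 1 word, against 5.09% of 8918 tested genes and 2.6% of 27025 genes with a window. The windows below belong to the 5 genes with a word that had the lowest 12 h log2 fold change, and to Mcm6, which was added after its values were seen because it held 3 words and did not fall. Each is written 5′ to 3′ on the gene's strand, with E2F words in capitals.
Mcm5 (chr8:75109259-75109558, + strand): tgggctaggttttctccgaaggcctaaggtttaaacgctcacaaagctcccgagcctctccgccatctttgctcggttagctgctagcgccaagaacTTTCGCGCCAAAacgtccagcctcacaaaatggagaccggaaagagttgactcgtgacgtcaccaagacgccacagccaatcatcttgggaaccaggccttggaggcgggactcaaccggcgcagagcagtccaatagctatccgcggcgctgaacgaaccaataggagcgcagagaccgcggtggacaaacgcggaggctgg
Cdc6 (chr11:98907901-98908200, + strand): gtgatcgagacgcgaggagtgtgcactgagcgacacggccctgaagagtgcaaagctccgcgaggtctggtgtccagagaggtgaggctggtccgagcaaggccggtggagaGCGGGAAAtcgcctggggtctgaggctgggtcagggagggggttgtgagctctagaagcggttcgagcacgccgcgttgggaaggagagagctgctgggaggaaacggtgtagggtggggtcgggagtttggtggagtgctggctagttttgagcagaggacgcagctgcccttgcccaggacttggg
Pola1 (chrX:93632106-93632405, - strand): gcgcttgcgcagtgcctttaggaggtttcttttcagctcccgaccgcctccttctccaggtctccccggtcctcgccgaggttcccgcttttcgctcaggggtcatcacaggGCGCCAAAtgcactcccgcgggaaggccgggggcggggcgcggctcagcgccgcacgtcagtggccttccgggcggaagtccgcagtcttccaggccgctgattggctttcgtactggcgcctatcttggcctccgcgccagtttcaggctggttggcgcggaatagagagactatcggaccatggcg
Lig1 (chr7:13278576-13278875, + strand): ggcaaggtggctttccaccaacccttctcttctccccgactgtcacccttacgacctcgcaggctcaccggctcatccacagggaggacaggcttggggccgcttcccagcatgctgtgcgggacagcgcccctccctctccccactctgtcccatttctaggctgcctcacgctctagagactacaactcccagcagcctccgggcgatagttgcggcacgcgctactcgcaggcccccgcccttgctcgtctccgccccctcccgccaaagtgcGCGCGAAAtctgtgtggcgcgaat
Mcm3 (chr1:20820263-20820562, - strand): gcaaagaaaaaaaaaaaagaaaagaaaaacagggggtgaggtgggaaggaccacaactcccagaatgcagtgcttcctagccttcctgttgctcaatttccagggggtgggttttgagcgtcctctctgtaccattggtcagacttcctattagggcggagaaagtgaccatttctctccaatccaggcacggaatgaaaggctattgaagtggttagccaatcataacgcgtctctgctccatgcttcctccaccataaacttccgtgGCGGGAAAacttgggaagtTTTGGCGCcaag
Mcm6 (chr1:128359656-128359955, - strand): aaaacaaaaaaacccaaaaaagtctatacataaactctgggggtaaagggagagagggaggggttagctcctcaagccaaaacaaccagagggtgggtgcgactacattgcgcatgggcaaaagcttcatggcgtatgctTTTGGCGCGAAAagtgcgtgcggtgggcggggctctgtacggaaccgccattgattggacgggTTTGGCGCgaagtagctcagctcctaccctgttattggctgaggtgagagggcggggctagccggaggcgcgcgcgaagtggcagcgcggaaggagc
In Mcm5, the words TTTCGCGC and TTTGGCGC overlap on opposite strands, and the first begins 153 bases before the start. Mcm6 carries the same pair in the reverse order from 110 bases before the start, and a further TTTGGCGC from 47 bases before it. In Cdc6 and Pola1 the single word begins 138 bases before the start, while the words of Lig1 and Mcm3 lie within 50 bases after it. A match is only a run of letters and says nothing about binding in these cells.

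Before the groups are compared, the replicates need to be set side by side, since the 2 libraries of a group differed in exactly these genes. In vehicle cells 43 of the 44 genes were higher in replicate 2 than in replicate 1, with a median of 1.49-fold, and the largest difference was that of Cdc45 at 2.4-fold. At 2 h the count was 42 of 44, with a median of 1.54-fold and a largest difference of 3.18-fold for Tk1. At 12 h it was 22 of 44, with a median log2 difference of 0.00. Across all 11080 tested genes, 50.3%, 50.8% and 57.2% were higher in replicate 2 in the 3 groups, with median log2 differences of 0.00, 0.01 and 0.03. The 20 mitotic genes (among them Ccnb1, Cdk1 and Plk1) differed between replicates in the same direction in vehicle and at 2 h, being higher in replicate 2 in 20 of 20 cases in vehicle, 20 of 20 at 2 h and 16 of 20 at 12 h, with median log2 differences of 0.99, 0.87 and 0.39. What set the replicates apart was not tested.

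**Figure D1:**
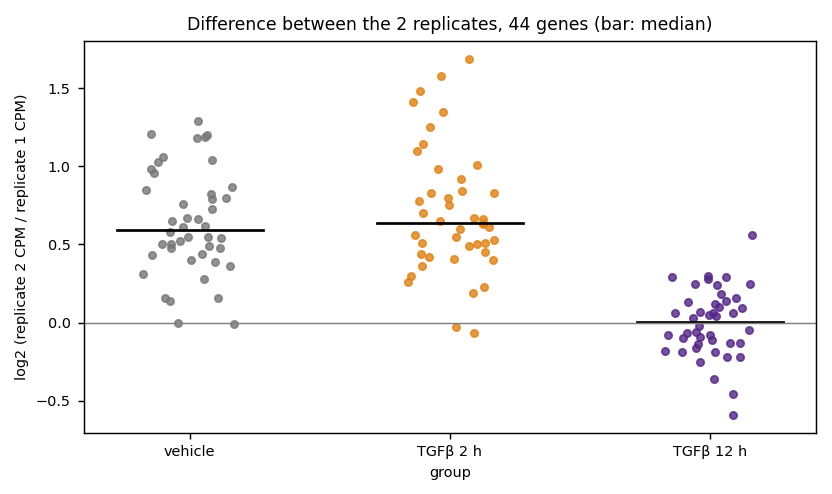
Each point is 1 of the 44 genes, and the vertical axis is the log2 ratio of CPM in replicate 2 to CPM in replicate 1 within a group, with the median as a bar. Vehicle and 2 h points lie almost all above 0 with medians of 0.58 and 0.63, while the 12 h points are centred on 0.00.

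This spread shows in the share of each library that the 44 genes held together. It was 0.158% and 0.242% of counts in the vehicle libraries, 0.149% and 0.238% at 2 h, and 0.109% and 0.11% at 12 h. The ranges of the 2 h and vehicle libraries thus overlapped, and both 12 h libraries lay below it. The fold changes below carry these differences, and the standard error (SE) and test of each gene take in the spread between replicates.

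After 2 h of TGFβ, none of the 44 genes was called higher or lower at an adjusted p under 0.05, whereas 9.91% of all tested genes were called higher and 5.25% lower. The log2 fold changes ran from -1.21 for Cdc6 to 0.63 for Cdt1, with a median of 0.03 beside -0.01 over all tested genes, and the lowest adjusted p was 0.121 (edgeR quasi-likelihood test). At an unadjusted p under 0.05, 2 genes passed in edgeR, 2 in limma-voom and 3 in DESeq2, and neither of the latter tools called any of the 44 after adjustment. With total counts in place of TMM factors, 854 of all tested genes were called higher and 975 lower, beside 1098 and 582 with TMM, and the median over all tested genes shifted by -0.11. The median rested on which library was used, being 0.29 without 2 h replicate 1 and -0.41 without 2 h replicate 2, and -0.30 and 0.33 without vehicle replicates 1 and 2. With 2 h replicate 1 left out 1 gene, Cdt1, was called higher, and with 2 h replicate 2 left out 1 gene, Cdc6, was called lower.

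The study's labels and methods do not say that a replicate number marks a shared culture or day, so the fit had no term for it. With the replicate number as a block, 3 of the 44 genes were called at 2 h, Cdc6 (log2 fold change -1.23, adjusted p = 0.00689) and Mcm10 (-0.46, adjusted p = 0.0482) lower and Cdt1 (0.61, adjusted p = 0.00935) higher. Over all tested genes, 12.7% were then called lower and 16.4% higher.

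Cdc6 and Cdt1 were at the ends of the 2 h range. Cdc6, the ATPase that helps to load MCM2-7, stood at 5.12 and 11.6 CPM in vehicle and 1.97 and 5.24 CPM at 2 h (log2 fold change -1.21, SE 0.535, adjusted p = 0.191). The 2 h and vehicle ranges of Cdc6 overlapped. Cdt1, its partner in loading, stood at 28.4 and 38.3 CPM in vehicle and at 40.4 and 62.6 CPM at 2 h, with both 2 h libraries above both vehicle libraries (log2 fold change 0.63, SE 0.236, adjusted p = 0.133). No other gene of the 44 had both 2 h libraries above both vehicle libraries, a pattern seen in 28.4% of tested genes, and with total counts in place of TMM factors Cdt1 lost it too. Both 2 h libraries lay below both vehicle libraries for 4 genes, Orc2, Orc6, Rfc1 and Pole2, against 27.5% of tested genes.

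After 12 h, 25 of the 44 genes (56.8%) were called lower, against 21.5% of all tested genes, and 1 gene, Orc2, was called higher, against 21.8%. The median log2 fold change was -1.04, beside 0.02 over all tested genes, and the values ran from -5.02 for Tk1 to 0.45 for Orc2. Of the 25, 22 also passed an absolute log2 fold change of 1, against 11.6% of tested genes. Both 12 h libraries lay below both vehicle libraries for 35 of the 44 genes (37.2% of tested genes) and above them for 2, Orc2 and Mcm6 (39.6%). The other 18 genes were not called. With total counts in place of TMM factors, 1830 of all tested genes were called higher and 3047 lower, beside 2414 and 2385 with TMM, and the median over all tested genes shifted by -0.13, which left 28 of the 44 called lower and Orc2 no longer called.

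Leaving out single libraries changed these counts. Without vehicle replicate 2, the library in which the genes were highest in that group, 16 genes were called lower and the median was -0.54. Among the called genes this moved the fold by over 1.5 times for Cdc6, Tk1, Mcm3 (log2 fold change -1.48), Cdc45 (-1.75), Lig1 (-1.48), Rrm2 (-2.48) and Chaf1a (-1.26), and no other library did so for a called gene. Without 12 h replicate 1 or without 12 h replicate 2, 14 genes were called lower in each case, and the median was -1.02 and -1.01. In all 15 alternatives tried, 13 genes kept the call: Cdc6, Mcm5, Mcm10, Gins2, Rfc1, Rfc5, Pola1, Prim1, Pole, Pole2, Rrm2, Tk1 and Chaf1b. The other 12 lost it in at least 1 alternative. With the replicate block, 31 genes were called lower and 2 higher. The additions were Mcm2, Mcm4, Gins4, Rfc2, Rpa1 and Tyms among the lower and Mcm6 among the higher. The block also raised the calls over all tested genes, to 3052 lower and 3075 higher, beside 2385 and 2414 without it.

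**Figure D2:**
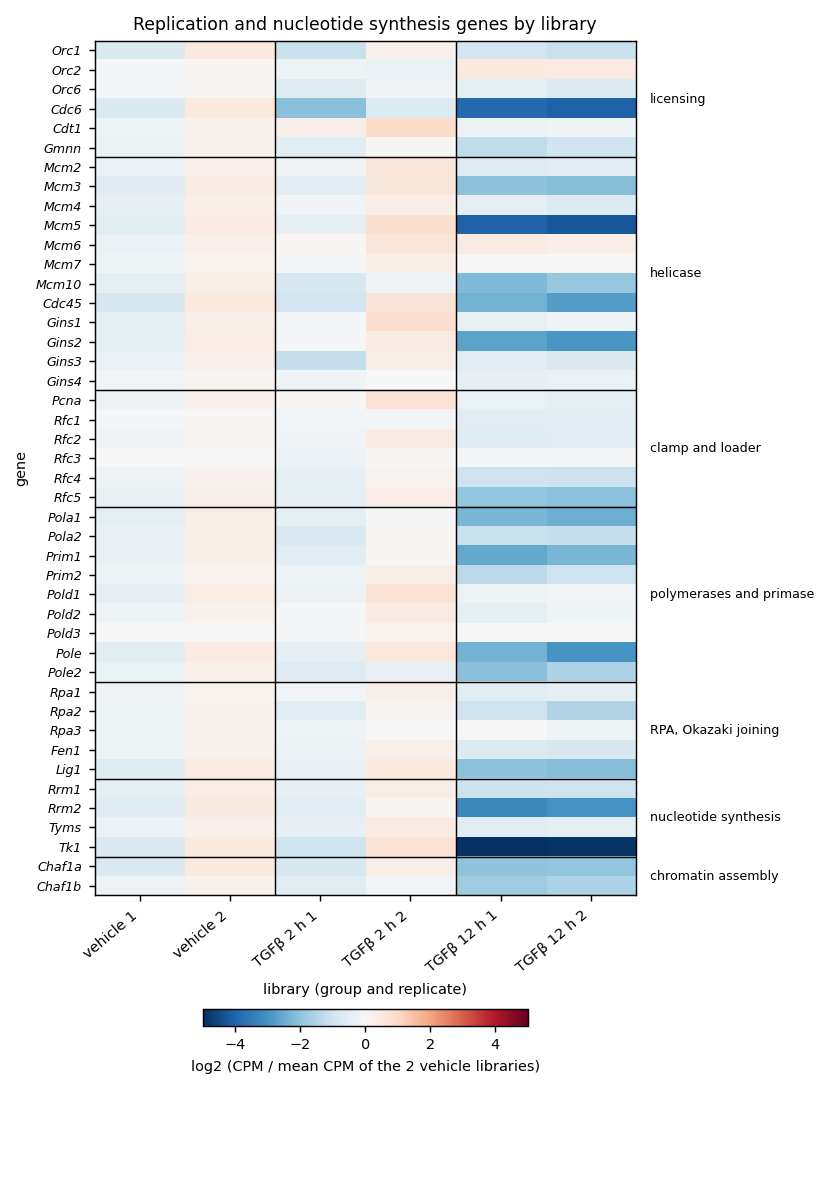
Each row is a gene, grouped by role, and each column a library. Colour is the log2 ratio of its CPM to the mean CPM of the 2 vehicle libraries. The deep blue cells at 12 h in Tk1, Mcm5, Cdc6 and Rrm2 stand beside pale rows such as Mcm7, Pold3 and Rfc3 in the same 2 libraries.

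Among the licensing genes, 3 of 6 fell, 1 rose and 2 were not called, where 21.5% of all tested genes fell and 21.8% rose. Cdc6 (chr11:98769115-98785254, NCBIM37, + strand) was at 0.566 and 0.513 CPM at 12 h, from 13 and 10 counts, and its log2 fold change against vehicle was -3.93 (SE 0.650, adjusted p = 0.00342), a 15.2-fold lower level, or 9.36-fold without vehicle replicate 2. Cdt1 in the same libraries was at 27.0 and 28.9 CPM, beside 28.4 and 38.3 CPM in vehicle (log2 fold change -0.25, adjusted p = 0.425). Per kilobase of exon, Cdc6 was at 7.53% and 12.7% of the level of Cdt1 in vehicle, 2.04% and 3.5% at 2 h and 0.878% and 0.743% at 12 h. The 2 h ratios lay below both vehicle ratios. Cdc6 and Cdt1 had the lowest and highest log2 fold changes of the 44 at 2 h, and neither was called. The lower ratio restates those values, and the ratio itself was not tested.

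Gmnn encodes geminin, which holds CDT1 inactive after origins have fired. It stood at 20.6 and 31.3 CPM in vehicle, 17.4 and 27.2 CPM at 2 h and 10.8 and 13.2 CPM at 12 h, and it fell by 1.11 on the log2 scale at 12 h (SE 0.288, adjusted p = 0.0202). That call was lost without vehicle replicate 2 (adjusted p = 0.106) and without 12 h replicate 1 or 2 (0.0726 without replicate 2). Of the 3 subunits of the origin recognition complex among the 44, Orc6 and Orc1 had negative log2 fold changes and Orc2 a positive one. Orc6 had 23.9 and 26.8 CPM in vehicle and 18.3 and 15.7 CPM at 12 h, a fall of 0.58 (adjusted p = 0.0469) that leaving out any of the 4 libraries compared took above 0.05, the adjusted p then being 0.0945 to 0.205. Orc1 was low in all libraries, at 2.06 and 4.77 CPM in vehicle and 1.74 and 1.59 CPM at 12 h, and was not called (log2 fold change -1.03, SE 0.557, adjusted p = 0.182). Its log2 fold change ran from -1.51 to -0.30 over the libraries left out.

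Orc2 (chr1:58519615-58561953, NCBIM37, - strand) was the only gene of the 44 called higher. It had 39.9 and 44.6 CPM in vehicle, 35.0 and 33.3 CPM at 2 h and 59.4 and 56.1 CPM at 12 h, so its 2 h libraries lay below vehicle and its 12 h libraries above. At 2 h the log2 fold change was -0.31 (adjusted p = 0.121) and at 12 h 0.45 (SE 0.110, adjusted p = 0.0162), and the difference of 0.76 between 12 h and 2 h was called (adjusted p = 0.00323). The call against vehicle was lost with total counts in place of TMM factors (0.32, adjusted p = 0.0593), without vehicle replicate 1 (adjusted p = 0.109) and without 12 h replicate 1 or 2 (0.118 and 0.0734).

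Among the helicase genes, 5 of 12 were called lower, beside 21.5% of all tested genes, and 7 were not called. Mcm5 (chr8:77633427-77652338, NCBIM37, + strand) had 46.8 and 90.9 CPM in vehicle, 50.8 and 120.8 CPM at 2 h and 4.22 and 3.69 CPM at 12 h, a 17.3-fold lower level at 12 h than in vehicle (log2 fold change -4.11, SE 0.531, adjusted p = 0.00124). Mcm3 had 40.1 and 82.2 CPM in vehicle, 41.8 and 89.5 CPM at 2 h and 14.9 and 13.9 CPM at 12 h (log2 fold change -2.08, SE 0.449, adjusted p = 0.0100). The call of Mcm3 was lost without either 12 h replicate (adjusted p = 0.0701 and 0.0787). Both genes were far below vehicle in both 12 h libraries.

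The remaining ring subunits were not called, although Mcm2 was called lower in 4 and Mcm4 in 2 of the 15 alternatives, and Mcm6 higher in 1, the replicate block. Mcm6 (chr1:130228168-130256233, NCBIM37, - strand) had 88.1 and 126.6 CPM in vehicle, 113.4 and 161.6 CPM at 2 h and 143.9 and 136.0 CPM at 12 h (log2 fold change 0.38, SE 0.221, adjusted p = 0.207). Mcm7 had 77.0 and 101.5 CPM in vehicle and 87.5 and 91.2 CPM at 12 h (log2 fold change 0.00, SE 0.183, adjusted p = 0.995), a value whose sign turned with the scaling. Mcm2 and Mcm4 each had a log2 fold change of -0.58 (adjusted p = 0.149 and 0.122), with both 12 h libraries below both vehicle libraries.

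MCM2-7 is a ring of 1 copy of each subunit, and per kilobase of exon their RNA levels lay close together in vehicle. Mcm6 was highest at 24.6 ± 6.24 CPM per kb (SD, n = 2) and Mcm4 lowest at 18.3 ± 6.36, and the ranges of all neighbours in the order overlapped, as they did at 2 h. These levels use the union of exons, which is 4426 bases for Mcm7 beside a longest transcript of 2962. For Mcm6 the lengths are 4366 and 4355 bases. By the longest transcript, Mcm7 would lie above Mcm6 in vehicle and at 2 h, so their order and ratio rest on the length used. At 12 h the order was Mcm6 at 32.1 ± 1.28, Mcm7 at 20.2 ± 0.594, Mcm2 at 12.8 ± 0.867, Mcm4 at 12.2 ± 1.16, Mcm3 at 4.81 ± 0.255 and Mcm5 at 1.13 ± 0.107 CPM per kb. Only the ranges of Mcm2 and Mcm4 still overlapped. Relative to Mcm6, Mcm5 was at 66.3% and 89.7% in vehicle, 55.8% and 93.2% at 2 h and 3.67% and 3.41% at 12 h, while Mcm7 was at 86.1% and 79.0% in vehicle and 60.0% and 66.2% at 12 h.

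**Figure D3:**
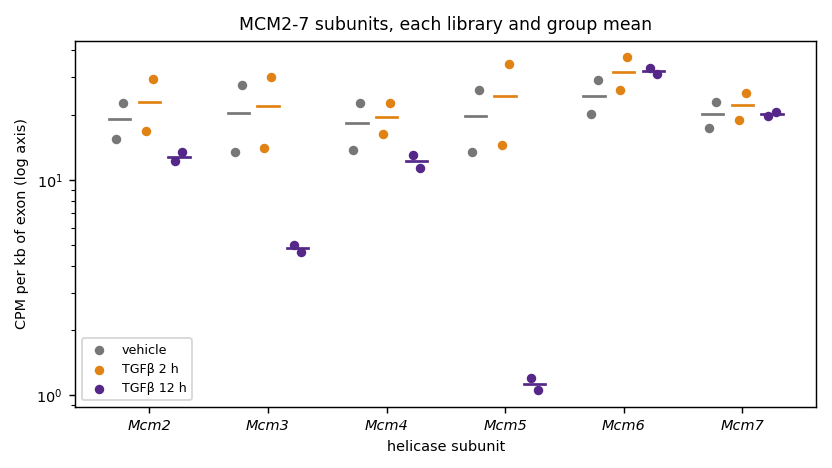
Points are single libraries and bars the means of 2 replicates, on a log axis of CPM per kb of exon, for the 6 subunits of the MCM2-7 ring. Vehicle and 2 h points of all subunits share 1 band, which reaches down to 13.4. At 12 h Mcm3 and Mcm5 drop far below it, to means of 4.81 and 1.13. Mcm4 (13.1 and 11.4) and Mcm2 in replicate 1 (12.2) lie just below it.

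The promoter words shown above can be set beside these values. Mcm5 and Mcm6 both carry the overlapping pair of E2F words, and the first fell while the second did not. Over all windows, 6 of 21 genes called lower at 12 h (28.6%) and 8 of 15 others (53.3%) held an E2F word, Mcm7, Pold1, Pold3 and Rfc3 being among the latter. A CCAAT box (CCAAT) was in 63.9% of the windows of the set and 43.6% of those of tested genes, a GC box (GGGCGG) in 75.0% and 70.8%, and the word TTTGAA of the cell cycle homology region in 13.9% and 14.0%, both strands being read.

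Among the factors that activate the ring, Mcm10 had 17.2 and 29.2 CPM in vehicle, 13.4 and 19.8 CPM at 2 h and 5.09 and 6.26 CPM at 12 h (log2 fold change -2.03, SE 0.319, adjusted p = 0.00277). Cdc45 had 6.94 and 17 CPM in vehicle and 2.31 and 1.8 CPM at 12 h (log2 fold change -2.53, SE 0.645, adjusted p = 0.0190), and its call was lost in limma-voom (adjusted p = 0.0569), without vehicle replicate 2 (0.0884) and without 12 h replicate 1 or 2 (0.0958 and 0.121). In the GINS complex, which joins CDC45 on the ring, 1 of 4 genes was called lower, beside 21.5% of all tested genes. Gins2 had 6.88 and 12.5 CPM in vehicle, 9.05 and 12.9 CPM at 2 h and 1.52 and 1.28 CPM at 12 h, a 6.86-fold lower level (log2 fold change -2.78, SE 0.372, adjusted p = 0.00146). Gins1, Gins3 and Gins4 were not called, with log2 fold changes of -0.29, -0.61 and -0.37 and adjusted p of 0.566, 0.341 and 0.0711, and Gins4 was called lower in 4 of the 15 alternatives. Per kilobase, Gins2 was at 5.71% and 8.6% of Gins4 in vehicle, 7.95% and 9.91% at 2 h and 1.51% and 1.21% at 12 h.

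PCNA is the sliding clamp that tethers the polymerases, and the RFC complex loads it. Pcna itself was not called at 12 h, with 49.7 and 72.6 CPM in vehicle and 48.0 and 44.8 CPM at 12 h (log2 fold change -0.40, SE 0.257, adjusted p = 0.255). Of the 5 loader subunits, Rfc1, Rfc4 and Rfc5 fell. Rfc5 had 24.6 and 38.8 CPM in vehicle, 23.5 and 40.2 CPM at 2 h and 8.23 and 7.75 CPM at 12 h (log2 fold change -1.99, SE 0.321, adjusted p = 0.00310). Rfc1 differed little between replicates, at 111.9 and 123.6 CPM in vehicle and 79.2 and 82.3 CPM at 12 h, and a fall of 0.54 passed the test (SE 0.0993, adjusted p = 0.00512). Rfc4 fell by 1.04 (adjusted p = 0.0179), a call lost without vehicle replicate 2 (0.0960) and without 12 h replicate 1 or 2 (0.0887 and 0.10). Rfc2 and Rfc3 had log2 fold changes of -0.59 and -0.09 (adjusted p = 0.0638 and 0.656), and Rfc2 was called lower in 7 of the 15 alternatives. Rfc5 went from 80.6% and 127.7% of the per-kilobase level of Rfc3 in vehicle to 28.5% and 27.3% at 12 h.

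For the polymerases, 6 of 9 genes fell, beside 21.5% of all tested genes. They were those of the primase, of polymerase α and of 2 subunits of polymerase ε. Pola1 (chrX:90550106-90877494, NCBIM37, - strand), the catalytic subunit of polymerase α, had 32.2 and 56.0 CPM in vehicle, 32.3 and 42.6 CPM at 2 h and 8.93 and 8.01 CPM at 12 h (log2 fold change -2.38, SE 0.290, adjusted p = 0.000986, the lowest among the 44). Prim1, the catalytic primase subunit, had 27.1 and 43.2 CPM in vehicle and 5.88 and 7.13 CPM at 12 h (log2 fold change -2.43, SE 0.305, adjusted p = 0.00110). Their partners Pola2 and Prim2 fell by 1.12 and 1.18 (adjusted p = 0.0278 and 0.00658), which for Pola2 was lost without vehicle replicate 2 (0.139) and without 12 h replicate 1 or 2 (0.122 and 0.135), and for Prim2 without 12 h replicate 1 (0.0576).

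Pole, the catalytic subunit of the leading-strand polymerase ε, had 25.7 and 50.8 CPM in vehicle, 28.3 and 55.7 CPM at 2 h and 7.36 and 4.88 CPM at 12 h (log2 fold change -2.64, SE 0.461, adjusted p = 0.00428). Its partner Pole2 had 7.06 and 10.8 CPM in vehicle, 5.66 and 6.96 CPM at 2 h and 2.09 and 3.08 CPM at 12 h (log2 fold change -1.79, SE 0.311, adjusted p = 0.00417). The 3 genes of polymerase δ, which copies the lagging strand, were not called. Pold1 had 25.1 and 45.1 CPM in vehicle and 29.4 and 32.1 CPM at 12 h, within the vehicle range (log2 fold change -0.19, adjusted p = 0.717). Pold2 and Pold3 had log2 fold changes of -0.32 and -0.01 (adjusted p = 0.315 and 0.962), and their 12 h ranges overlapped vehicle too. Of the further subunits in the wider pathway list, Pole3 and Pole4 of polymerase ε had log2 fold changes of 0.09 and -0.15 (adjusted p = 0.746 and 0.460) and Pold4 of polymerase δ -0.31 (adjusted p = 0.0885), so neither complex was called as a whole. The difference between the polymerase ε and δ genes was not tested.

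**Figure D4:**
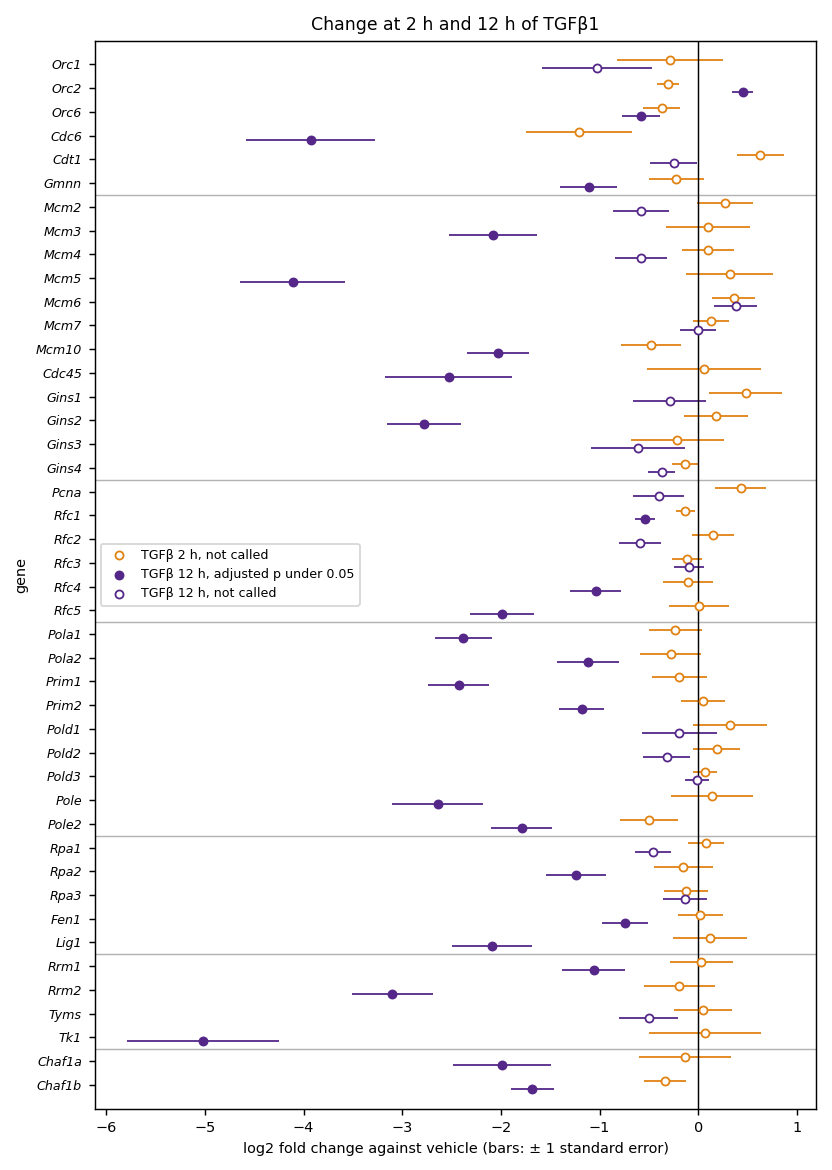
Points are log2 fold changes against vehicle with bars of ± 1 SE, orange for 2 h and purple for 12 h, and filled where the adjusted p was under 0.05. The 2 h points are all open and run from -1.21 to 0.63, and the 12 h points spread from 0.45 for Orc2 to -5.02 for Tk1, with called and uncalled genes in most roles.

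Replication protein A coats single-stranded DNA and has 3 subunits. Rpa2 fell from 14.8 and 20.8 CPM in vehicle to 8.66 and 6.31 CPM at 12 h (log2 fold change -1.24, adjusted p = 0.0168), a call lost without vehicle replicate 2 (0.0864) and without 12 h replicate 2 (0.111). Rpa1 and Rpa3 were not called (log2 fold changes -0.46 and -0.13, adjusted p = 0.0808 and 0.675), and Rpa1 was called lower in 6 of the 15 alternatives. On the lagging strand, Lig1, the ligase that seals Okazaki fragments, had 28.5 and 58.7 CPM in vehicle, 34.1 and 60.4 CPM at 2 h and 10.5 and 10.0 CPM at 12 h (log2 fold change -2.09, SE 0.402, adjusted p = 0.00635). Without 12 h replicate 1 or 2 the adjusted p of Lig1 was 0.0537 and 0.0582. Fen1, the flap nuclease, fell by 0.74 (adjusted p = 0.0398), which was lost in limma-voom (0.0511), without vehicle replicate 2 (0.201) and without 12 h replicate 1 or 2 (0.124 and 0.176).

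The nucleotide synthesis genes held the lowest value of the set. Tk1 (chr11:117676840-117687406, NCBIM37, - strand), the thymidine kinase of the salvage pathway, had 14.1 and 32.3 CPM in vehicle, 11.5 and 37.2 CPM at 2 h and 0.653 and 0.77 CPM at 12 h. The 12 h values rest on 15 counts in each library, and they were 32.4-fold lower than vehicle (log2 fold change -5.02, SE 0.767, adjusted p = 0.00250), or 19.8-fold without vehicle replicate 2. Tyms, which makes thymidylate by the other route, was not called, with 21.3 and 31.1 CPM in vehicle and 17.7 and 19.4 CPM at 12 h (log2 fold change -0.50, SE 0.299, adjusted p = 0.223; called in 1 of the 15 alternatives, the replicate block).

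Ribonucleotide reductase is made of a large subunit from Rrm1 and a small one from Rrm2. Rrm2 had 26.0 and 54.0 CPM in vehicle, 27.2 and 43.0 CPM at 2 h and 4.27 and 5.08 CPM at 12 h (log2 fold change -3.10, SE 0.409, adjusted p = 0.00137). Rrm1 had 119.9 and 211.7 CPM in vehicle, 126.3 and 212.8 CPM at 2 h and 78.4 and 81.0 CPM at 12 h, and fell by 1.06 (SE 0.322, adjusted p = 0.0368), a call lost without vehicle replicate 2 (0.185) and without 12 h replicate 1 or 2 (0.159 and 0.148). Per kilobase, Rrm2 was at 31.3% and 36.8% of Rrm1 in vehicle, 31.0% and 29.1% at 2 h and 7.86% and 9.01% at 12 h. In this ratio the replicates of vehicle and 2 h lay closer together than in either gene alone.

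Both chromatin assembly genes fell. They encode the subunits of CAF-1 that place histones behind the fork. Chaf1b had 31.1 and 43.4 CPM in vehicle, 25.3 and 33.7 CPM at 2 h and 10.9 and 12.4 CPM at 12 h (log2 fold change -1.68, SE 0.221, adjusted p = 0.00136). Chaf1a had 16.4 and 37.7 CPM in vehicle and 6.75 and 6.88 CPM at 12 h (log2 fold change -1.99, adjusted p = 0.0176), and this call was lost without vehicle replicate 2 (0.0795) and without 12 h replicate 1 or 2 (0.106 and 0.104).

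Set directly against the 2 h group, the 12 h group was called lower in 25 of the 44 genes, against 18.9% of tested genes, and higher in 1, Orc2, against 15.2%. The median log2 fold change was -0.87, and 19 of the 25 also passed an absolute log2 fold change of 1 (9.87% of tested genes). Without 12 h replicate 1 or 2 the count was 8 in each case, and without 2 h replicate 2 it was 14. With the replicate block 33 genes were called lower, the additions being Gmnn, Mcm2, Mcm4, Gins1, Pola2, Pold2, Rpa1 and Tyms. Over all tested genes, the block gave 2788 lower and 2585 higher in the same contrast, beside 2093 and 1682 without it. This contrast and that against vehicle share the 12 h libraries, so they are not separate evidence. In the edgeR fit without a replicate block, Cdt1, Pcna and Rfc2 were called in the 12 h against 2 h contrast and not against vehicle, with log2 differences of -0.88, -0.83 and -0.74 (adjusted p = 0.0289, 0.0473 and 0.0367). All 3 had 12 h levels below both 2 h libraries.

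A gene's replicate difference and its later change were related within the set. Across the 44 genes, the log2 ratio of replicate 2 to replicate 1 at 2 h and the 12 h log2 fold change against vehicle had a Pearson r of -0.573 and a Spearman rho of -0.505. The 2 measures share no library, but the genes are not independent of each other, so these are descriptions. Tk1 had the largest 2 h replicate difference and the lowest 12 h value, and Orc2 had the lowest 2 h replicate difference (-0.07 on the log2 scale) and the highest 12 h value.

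The wider pathway was represented by 73 further genes of replication and nucleotide metabolism, all tested. At 12 h, 27 fell (21.5% of all tested genes), 6 rose (21.8% of all tested genes) and 40 were not called, with a median log2 fold change of -0.33. The 4 with the lowest values were Pclaf, Top2a, Ticrr and Clspn. Pclaf, a PCNA-binding factor, went from 11 and 17.2 CPM in vehicle to 0.131 and 0.154 CPM, which is 3 counts in each 12 h library. Top2a, the topoisomerase that untangles daughter strands, went from 196.8 and 414.5 CPM to 10.2 and 9.08 CPM (log2 fold change -4.98, adjusted p = 0.000375). The origin firing factor Ticrr and the fork mediator Clspn had log2 fold changes of -4.47 and -4.41 (adjusted p = 0.00357 and 0.00168).

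Of the 6 genes that rose, 5 belong to the synthesis of nucleotides. The 4 with the highest values were Chtf8, a subunit of an alternative clamp loader, at 0.72, Umps of pyrimidine synthesis at 0.68, Gart of purine synthesis at 0.66 and the CTP synthase gene Ctps at 0.62 (adjusted p = 0.00273, 0.00490, 0.0140 and 0.00658). The other 2, named after their values were seen, were the purine synthesis genes Atic and Pfas at 0.62 and 0.42. Of the deoxynucleotide genes on this list, Dut, Dtymk, Dctd, Rrm2b and Tk2 were not called (adjusted p = 0.0862, 0.234, 0.140, 0.0795 and 0.588). At 2 h, 1 of the 73 genes rose (Ctps), where 9.91% of all tested genes did, and 4 fell (Orc5, Atad5, Shmt1 and Ppat), where 5.25% did.

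Among the 16 regulators of G1 and S phase, 8 fell and 3 rose at 12 h, where 21.5% and 21.8% of all tested genes did. The S phase cyclin gene Ccna2 fell by 6.13 (adjusted p = 0.000241) and Ccne2 by 2.38 (adjusted p = 0.00108), while Ccne1 was not called (log2 fold change -1.93, adjusted p = 0.0954). E2f1 fell by 0.98 (adjusted p = 0.0162). Other E2F genes, named after their values were seen, also changed, with E2f2 and E2f8 at log2 fold changes of -4.69 and -4.89 (adjusted p = 0.000196 and 0.00073), E2f7 going from 3.06 and 5.47 CPM to 0.131 and 0.257 CPM, and E2f3 at 0.84 (adjusted p = 0.0234). Cdkn2b, which encodes the inhibitor p15 and is a known TGFβ target, rose by 2.07 on the log2 scale (adjusted p = 0.000342) and Myc by 1.91 (adjusted p = 0.00112), and Cdkn1a, which encodes p21, was not called (0.43, adjusted p = 0.0556). At 2 h, 5 of the 16 were already called, E2f2, Ccne2 and Ccnd1 lower (log2 fold changes -2.39, -1.38 and -0.53) and Cdkn2b and Cdc25a higher (1.00 and 0.66), where 5.25% and 9.91% of all tested genes were called. All 20 mitotic genes fell at 12 h, with a median log2 fold change of -5.24 beside -1.04 for the 44 replication genes, and none was called at 2 h.

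Several replication genes share a start region with a gene on the other strand. In the annotation of the same build as the counts (NCBIM37), 15 of the 44 had such a start within 1000 bases, and 10 of these neighbours were tested. At 12 h, 2 of the 10 neighbours fell and 1 rose, no more than the 21.5% and 21.8% of all tested genes, and the median log2 fold change was 0.06. Pole and Pxmp2 start 120 bases apart, and their log2 fold changes were -2.64 and 0.56 (adjusted p = 0.00428 and 0.0963). Cdc45 and Ufd1 start 208 bases apart and had -2.53 and 0.06 (adjusted p = 0.0190 and 0.642).

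The 3 neighbours that were called can be set beside their partners. Vps35, 119 bases from Orc6, fell by 0.63 (adjusted p = 0.00506), close to the fall of 0.58 for Orc6. Umad1, 115 bases from Rpa3, fell by 1.32 (adjusted p = 0.0158) while Rpa3 was at -0.13. Ap4m1, 420 bases from Mcm7, rose by 0.35 (adjusted p = 0.0495) while Mcm7 was at 0.00. Counting used strand, so reads of a pair were assigned by their direction.

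**Figure D5:**
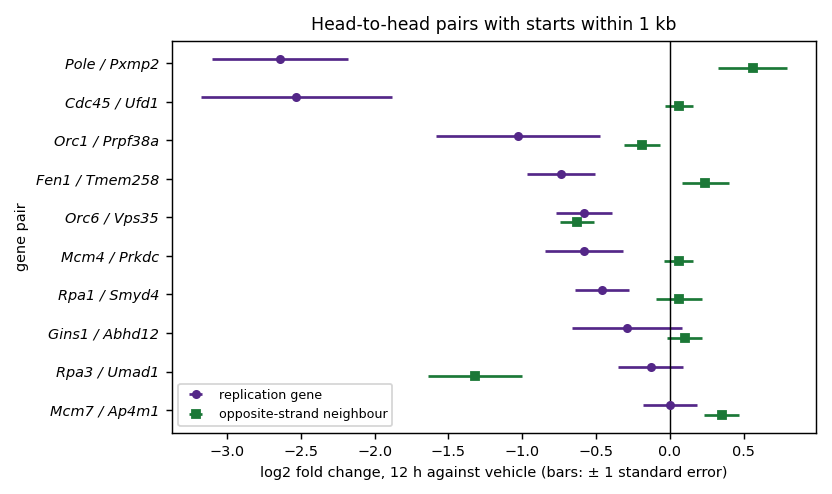
Each row is a pair of genes on opposite strands with starts within 1 kb, and points are log2 fold changes at 12 h against vehicle with bars of ± 1 SE, purple circles for the replication gene and green squares for its neighbour. Pole and Cdc45 lie at -2.64 and -2.53 with neighbours at 0.56 and 0.06, and Rpa3 shows the opposite arrangement with its neighbour at -1.32.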

How the data were processed

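RNA-seq data of 6 libraries were used as the raw counts per gene that the authors deposited. According to the study's methods, reads were aligned to mm9 with subjunc (Rsubread), duplicates were removed with samtools 0.1.19 rmdup, and uniquely mapped reads were assigned to exons of UCSC known genes by strand with featureCounts. Removal of duplicates can compress the counts of abundant genes, and the study's other assays were not used here.

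Counts were tested in edgeR 4.0.16 (R 4.3.3) with TMM factors, keeping genes that reached 2 CPM in 2 or more libraries. All 6 libraries entered 1 quasi-likelihood fit of 3 groups, and p-values were adjusted by Benjamini-Hochberg over 11080 genes within each contrast; genes were called at an adjusted p under 0.05. The script was tested on simulated data. Printed CPM use TMM factors. The text names all 44 genes, and the rule for the pathway list was the 4 largest called changes per direction. Further genes of the lists are named outside this rule. The genes, lists and roles were chosen with earlier results of these data known. Levels per kilobase use the union of exons in GENCODE (NCBIM37). Alternatives were limma-voom (limma 3.58.1, the study's own test), DESeq2 1.42.0, other scalings and filters, a prior count of 2, a replicate block, only the 2 groups compared, and leaving out each library. Exact permutation of 2 against 2 libraries cannot reach 0.05 and was not used.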

Additional observations from a re-analysis of the deposited data

Results flagged for a closer look

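The 12 h and 2 h effects against the same vehicle libraries differed for 26 of the 44 genes, by the test of 12 h against 2 h itself (edgeR quasi-likelihood test, adjusted p under 0.05), 25 lower and 1 higher at 12 h, where 18.9% and 15.2% of all tested genes were. Without 12 h replicate 1 or 12 h replicate 2, 8 were lower and 1 higher in each case, and without 2 h replicate 2 it was 14 and 1. In log2 units the 12 h effect minus the 2 h effect was 0.76 for Orc2, -2.72 for Cdc6 and -0.88 for Cdt1 among the licensing genes. It was -2.19 for Mcm3, -4.43 for Mcm5, -1.55 for Mcm10, -2.59 for Cdc45 and -2.96 for Gins2 among the helicase genes. For the clamp and its loader it was -0.83 for Pcna, -0.41 for Rfc1, -0.74 for Rfc2, -0.94 for Rfc4 and -1.99 for Rfc5. For the primase and polymerases it was -2.14 for Pola1, -2.24 for Prim1, -1.23 for Prim2, -2.77 for Pole and -1.29 for Pole2. It was -1.09 for Rpa2, -0.76 for Fen1 and -2.20 for Lig1, then -1.09 for Rrm1, -2.91 for Rrm2 and -5.09 for Tk1, and -1.85 for Chaf1a and -1.34 for Chaf1b. The 2 times differ in hours of TGFβ and in hours without serum, which cannot be told apart.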

How the results depend on the processing

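Leaving out 1 library at a time gave 14 to 29 of the 44 genes called lower at 12 h against vehicle (25 with all), 13 to 22 called lower by over 1 log2 unit (22 with all), 0 to 1 called higher, and a median of -1.32 to -0.54; 14 remained without either 12 h library and 16 without vehicle replicate 2. At 12 h against 2 h the ranges were 8 to 35 called lower, 8 to 28 by over 1 log2 unit, and a median of -1.20 to -0.49. At 2 h they were 0 to 1 higher, 0 to 1 lower and a median of -0.41 to 0.33. Over all tested genes, the ranges were 499 to 1250 higher and 138 to 950 lower at 2 h, 1333 to 2712 and 1506 to 2786 at 12 h, and 640 to 1699 and 1031 to 2122 at 12 h against 2 h. With total counts in place of TMM factors, 0 of the 44 were called higher at 12 h, 1 gene had both 12 h libraries and 0 had both 2 h libraries above vehicle, and 975 of all genes were lower at 2 h. With only the 2 groups compared, 644 of all genes were higher and 249 lower at 2 h.

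The replicate numbers are not stated to pair samples. Same-numbered deviations from the group means had r = 0.708 for vehicle and 2 h, 0.263 for vehicle and 12 h and 0.392 for 2 h and 12 h, over 11080 genes. With a replicate block, 1 of the 44 genes was called higher and 2 lower at 2 h, 2 higher and 31 lower at 12 h, and over all genes 1813 were higher and 1409 lower at 2 h and 2585 higher at 12 h against 2 h.

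Values near 0 changed sign. Mcm7 at 12 h was -0.01 in DESeq2, with DESeq2 size factors and with only 2 groups, -0.13 with total counts, 0.00 with at least 10 counts in every library, and -0.18 to 0.21 over the libraries left out. Gins1 (-0.63 to 0.16), Pold1 (-0.55 to 0.29) and Rpa3 (-0.33 to 0.11) changed sign without vehicle replicate 2. With total counts the neighbours Prkdc, Ufd1 and Smyd4 were each at -0.07 and Abhd12 at -0.03, and Smyd4 ran from -0.05 to 0.18 over the libraries left out. The cause was not tested. Low counts limit the 12 h levels of Tk1, Cdc6 and Pclaf. The same holds for Ticrr (5 and 8 counts at 12 h), Clspn (10 and 8), E2f2 (10 and 7), E2f7 (3 and 5) and E2f8 (7 and 6).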
